A study of Mus musculus with 7 samples.

Results

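The 10 genes described here encode enzymes that break down the branched-chain amino acids leucine, isoleucine and valine, together with the kinase that switches the pathway off. They were chosen by function, from a list of symbols, among transcript clusters that the array annotation gives exactly 1 symbol. The choice was made with earlier results of these data known, so the counts below are not those of a set picked blind. All 10 were found, each on a single such row, among 18820 genes measured. The cells were 3T3-L1, an established clonal mouse fibroblast line that turns into fat-storing adipocytes under hormones. The SCD inhibitor group (3 arrays) received 1 µM of a commercial inhibitor of stearoyl-CoA desaturase, the enzyme that makes monounsaturated from saturated fatty acids, and the DMSO group (4 arrays) received the solvent. Both groups were differentiated alike: isobutylmethylxanthine, dexamethasone and human insulin were given for 2 days, then insulin alone, and total RNA was taken on day 7. The labels do not name the compound, no strain or genotype differs between the groups, and each RNA sample was read on 1 Affymetrix array.

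Adipocytes are known as strong users of branched-chain amino acids, and differentiating 3T3-L1 cells are known to turn their carbon into fatty acids. In the first step an aminotransferase moves the amino group to 2-oxoglutarate; Bcat2 is the mitochondrial enzyme and Bcat1 the cytosolic one. The second step, which commits the carbon to oxidation, is run by the branched-chain 2-oxoacid dehydrogenase complex: Bckdha and Bckdhb form its decarboxylase, and Dbt is the acyltransferase core to which the other parts attach. The kinase Bckdk phosphorylates Bckdha and inactivates the complex. After that the amino acids part ways: Ivd and Mccc1 act on leucine, Hibch and Aldh6a1 on valine.

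Among the 10 genes, those for enzymes of the first 2 steps passed the test with the SCD inhibitor, and the kinase and the 4 later enzymes did not. This is no split by step: Mccc1 (-0.22) and Hibch (-0.20) had log2 differences near that of Bckdha (-0.25), and steps were not compared by a test. Outside the 10, the later enzymes Auh, Pcca and Pccb were lower too, and Dld, a shared part of the second step's complex, did not pass. Dbt was 1.98-fold lower (log2 -0.99, SE 0.047, 3 arrays against 4), and the other subunits Bckdhb and Bckdha and the mitochondrial aminotransferase Bcat2 fell by smaller amounts. The cytosolic aminotransferase Bcat1 rose 1.46-fold (log2 0.55, SE 0.035). In limma's fit over all genes, with p-values adjusted by Benjamini and Hochberg, 4 of the 10 genes were lower, 1 was higher and 5 did not pass an adjusted p of 0.05. Over all genes 8% passed, 4.37% lower and 3.62% higher. The median log2 difference was -0.21 over the 10 genes and -0.0037 over all genes. Inhibitor values lay wholly below the DMSO values in 7 of the 10 genes and wholly above them in 1, against 9.02% and 8.3% of all genes. The values come from whole cultures, so fewer cells of a type and less RNA per cell cannot be told apart. Whether replicates were separate cultures is not stated, so the p-values reflect the spread among these arrays alone and may be measuring technical variation.

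**Figure D1:**
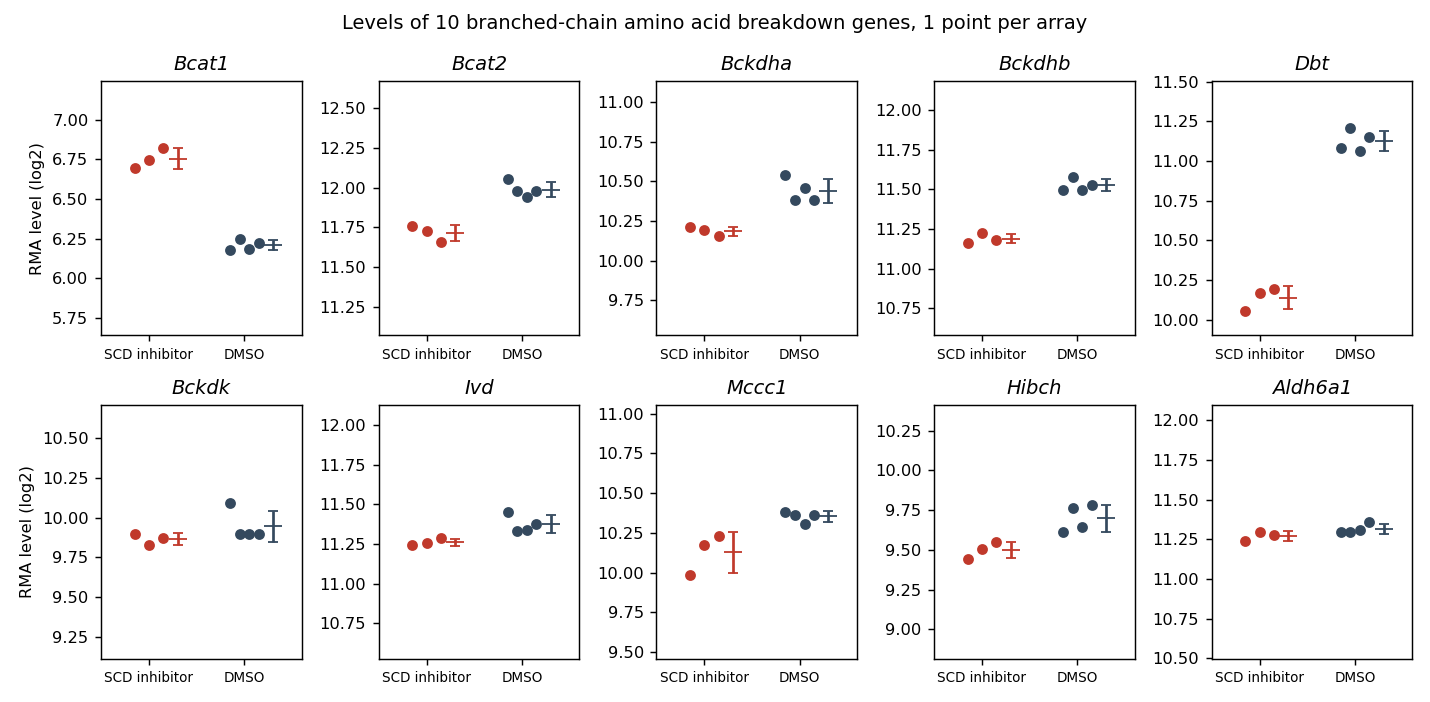
RMA expression level (log2) of the 10 genes, SCD inhibitor arrays on the left and DMSO arrays on the right of each panel, 1 point per array, with the group mean and SD beside the points. Every panel has the same span around the gene's own mean; Dbt shows the widest gap downwards and Bcat1 the widest upwards.

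As a check of the cells, all 8 adipocyte markers, Adipoq and Fabp4 among them, were read at mean levels of 10.26 to 12.71 on the log2 scale and 0 of 8 passed in limma (2 at an unadjusted p under 0.05). Of 5 measured preadipocyte markers 3 rose, against 3.62% of all genes: Pdgfra by 0.89 (adjusted p = 0.00245), Pdgfrb by 0.51 (0.00659) and Dlk1 by 0.32 (0.0402). The call of Dlk1 ended in 6 of the 7 fits that left out 1 array, all except that without DMSO 1 (adjusted p up to 0.129). Pdgfrb lost its call in limma without both arrays numbered 1 (0.48, adjusted p = 0.0906). The mean level of that list was 8.45 to 8.54 on inhibitor arrays and 8.02 to 8.15 on DMSO arrays, and its part in the changes below was not tested. Macrophage markers (5 genes, levels 3.12 to 5.94) and endothelial markers (4 genes, 3.24 to 3.90) were dim, with none past the test in limma and none at an unadjusted p under 0.05. Of 4 muscle markers Myod1, Myog and Ckm were dim as well, and Des, an intermediate filament protein, fell by 0.98. Arrays correlated at 0.9990 to 0.9995 within groups (9 pairs) and 0.9968 to 0.9975 between them (12 pairs).

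The 2 branched-chain aminotransferases moved in opposite directions. Bcat1 read 6.69, 6.75 and 6.82 on the inhibitor arrays, against 6.18, 6.25, 6.18 and 6.22 on the DMSO arrays. The lowest inhibitor array stood well above the highest DMSO array, and the gene ranked 124 from the top of all 18820 differences (adjusted p = 2.93e-04 in limma, 95% interval 0.46 to 0.63). Bcat2 read 11.76, 11.73 and 11.66 with the inhibitor, against 12.05, 11.98, 11.94 and 11.98 in DMSO. These groups did not overlap either, and Bcat2 fell by 0.27 (SE 0.036, adjusted p = 0.00582), to 82.8% of the DMSO level. Within each array, the log2 ratio of Bcat2 to Bcat1 was 4.96 ± 0.11 (SD, n = 3) with the inhibitor and 5.78 ± 0.064 (SD, n = 4) in DMSO, a change of -0.82. An exact two-sided permutation test over the 35 splits of the arrays gave p = 0.0286 for this ratio, the smallest these arrays can give, and 0.0286 adjusted over the 2 ratios tested. With Bcat1 wholly higher and Bcat2 wholly lower on the inhibitor arrays, the ratio had to separate the groups. Its p-value was thus fixed by the single-gene values and adds no evidence to them. The size of the ratio itself has no meaning, since probes of different genes differ in brightness, and only its change between groups is read.

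All 3 subunits that belong to this dehydrogenase complex alone fell, by unequal amounts. Dbt read 10.06, 10.17 and 10.20 with the inhibitor, against 11.08, 11.21, 11.06 and 11.15 in DMSO. This left 50.5% of the DMSO level and put Dbt at rank 77 from the bottom of all 18820 differences (adjusted p = 9.38e-05 in limma). Bckdhb read 11.16, 11.22 and 11.18 with the inhibitor, against 11.50, 11.58, 11.50 and 11.53 in DMSO. It fell by 0.34 (SE 0.027, adjusted p = 8.33e-04), to 79.2% of the DMSO level. Bckdha, which carries the phosphorylation sites, read 10.21, 10.20 and 10.15 with the inhibitor, against 10.54, 10.38, 10.46 and 10.38 in DMSO. It fell by 0.25 (SE 0.043, adjusted p = 0.0157), and its call ended without DMSO 3 (adjusted p = 0.0566), SCD inhibitor 2 (0.0598) or SCD inhibitor 3 (0.0703).

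Dbt was also low relative to its partners on each inhibitor array. The log2 ratio of Dbt to Bckdhb lay between -1.11 and -0.99 on inhibitor arrays and between -0.43 and -0.37 on DMSO arrays. For Dbt over Bckdha it lay between -0.15 and 0.04 on inhibitor arrays and between 0.54 and 0.83 on DMSO arrays. These ratios were formed after the values were seen and were not tested. The 95% intervals of the single differences were -1.10 to -0.87 for Dbt, -0.40 to -0.27 for Bckdhb and -0.36 to -0.15 for Bckdha. That of Dbt does not overlap the others, which describes the genes and does not test the difference between them.

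Upstream sequence was available from RefSeq (GRCm38.p6) for 9 of the 10 genes, all except Dbt, whose decrease was the largest. The 250 bases before the outermost annotated start are printed for the 4 genes among those 9 that passed the test. These are Bcat1, which rose, and Bcat2, Bckdha and Bckdhb, which fell. Of these, Bcat1, Bcat2 and Bckdhb have 2 annotated starts each, and only the outermost was searched. Strand is that of the gene, and capitals mark CCAAT and GGGCGG on either strand. The regions are chr6:145076158-145076407 (minus) for Bcat1, chr7:45569903-45570152 (plus) for Bcat2, chr7:25658762-25659011 (minus) for Bckdha and chr9:83924887-83925136 (plus) for Bckdhb.
Bcat1: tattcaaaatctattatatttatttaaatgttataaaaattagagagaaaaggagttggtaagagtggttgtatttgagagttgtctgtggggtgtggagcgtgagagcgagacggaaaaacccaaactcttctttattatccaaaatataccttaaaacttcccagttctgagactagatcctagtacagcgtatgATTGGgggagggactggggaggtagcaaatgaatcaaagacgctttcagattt
Bcat2: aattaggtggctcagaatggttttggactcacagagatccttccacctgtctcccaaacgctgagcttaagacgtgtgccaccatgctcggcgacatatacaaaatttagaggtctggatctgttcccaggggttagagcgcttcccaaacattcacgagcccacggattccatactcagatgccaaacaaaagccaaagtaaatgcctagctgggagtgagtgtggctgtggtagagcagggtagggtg
Bckdha: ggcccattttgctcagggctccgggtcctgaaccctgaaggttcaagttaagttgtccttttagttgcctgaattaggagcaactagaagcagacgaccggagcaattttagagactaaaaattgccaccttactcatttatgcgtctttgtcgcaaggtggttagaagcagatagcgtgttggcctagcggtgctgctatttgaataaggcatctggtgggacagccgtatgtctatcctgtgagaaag
Bckdhb: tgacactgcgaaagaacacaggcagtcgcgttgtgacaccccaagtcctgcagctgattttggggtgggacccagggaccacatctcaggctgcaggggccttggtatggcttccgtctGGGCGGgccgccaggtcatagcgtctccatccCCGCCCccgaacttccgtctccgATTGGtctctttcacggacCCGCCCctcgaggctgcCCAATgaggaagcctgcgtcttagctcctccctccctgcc
The windows differ in composition: 37.6% of bases are G or C for Bcat1, 50.4% for Bcat2, 47.6% for Bckdha and 63.2% for Bckdhb, against a median of 52% over 27025 genes. Bckdhb holds 2 copies of CCAAT, the core of the box bound by NF-Y, and 3 of GGGCGG, the GC box bound by Sp family factors. Bcat1 holds 1 CCAAT, and Bcat2 and Bckdha hold neither motif. Over the 9 windows CCAAT was found in 6, against 34.5% of all genes, and GGGCGG in 3, against 33%. The E-box CACGTG (6.04% of all genes), the amino acid response element TGATGNAA (3.53%) and the element TNAAGGTCA of estrogen-related receptors (1.13%), were found in 0 of the 9, all searched on both strands. None of the 5 motifs was found in all 4 printed genes.

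The kinase Bckdk did not pass. It read 9.90, 9.83 and 9.87 with the inhibitor, against 10.09, 9.89, 9.89 and 9.89 in DMSO, so that the groups overlapped and 1 DMSO array stood above the rest. The log2 difference was -0.08 (SE 0.055, adjusted p = 0.464 in limma) with a 95% interval of -0.21 to 0.05, so that decreases the size of those of Bckdha, Bckdhb and Dbt lie outside it. The log2 ratio of Bckdk to Bckdha, the kinase over its substrate subunit, was -0.32 ± 0.045 (SD, n = 3) with the inhibitor and -0.50 ± 0.049 (SD, n = 4) in DMSO. It was thus higher by 0.17 with the inhibitor, with all 3 inhibitor arrays above all 4 DMSO arrays (exact two-sided permutation p = 0.0286, adjusted p = 0.0286 over the 2 ratios). That is the smallest p these arrays can give, and the adjustment left it unchanged because both ratios had it. Bckdha fell by 0.25 on the same arrays, so the change of the ratio is not independent of that decrease.

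Both leucine enzymes lay lower on every inhibitor array than on any DMSO array, but neither passed. Ivd, isovaleryl-CoA dehydrogenase, read 11.24, 11.26 and 11.29 with the inhibitor, against 11.45, 11.33, 11.34 and 11.38 in DMSO, a difference of -0.11 (SE 0.033, adjusted p = 0.106). Mccc1, the biotin-carrying subunit of methylcrotonyl-CoA carboxylase, read 9.98, 10.17 and 10.23 with the inhibitor, against 10.38, 10.37, 10.30 and 10.36 in DMSO. Its difference was -0.22 (SE 0.059, adjusted p = 0.0728), and SCD inhibitor 1 lay below the other inhibitor arrays. Without that array the difference was smaller, -0.15, and passed (adjusted p = 0.0474). A further row that names both Mccc1 and its antisense gene Mccc1os was dim, with means of 3.67 with the inhibitor and 3.70 in DMSO, and was not used.

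The valine enzymes did not pass either. Hibch, which releases hydroxyisobutyrate from its CoA ester, read 9.44, 9.51 and 9.55 with the inhibitor, against 9.61, 9.77, 9.64 and 9.78 in DMSO. The groups did not overlap and the log2 difference was -0.20 (SE 0.051, adjusted p = 0.0679). Aldh6a1, the dehydrogenase that turns methylmalonate semialdehyde into propionyl-CoA, read 11.24, 11.30 and 11.28 with the inhibitor, against 11.30, 11.30, 11.31 and 11.36 in DMSO. Its groups overlapped, and its difference of -0.04 had a 95% interval of -0.10 to 0.01, so that a decrease the size of Bcat2's lies outside it.

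**Figure D2:**
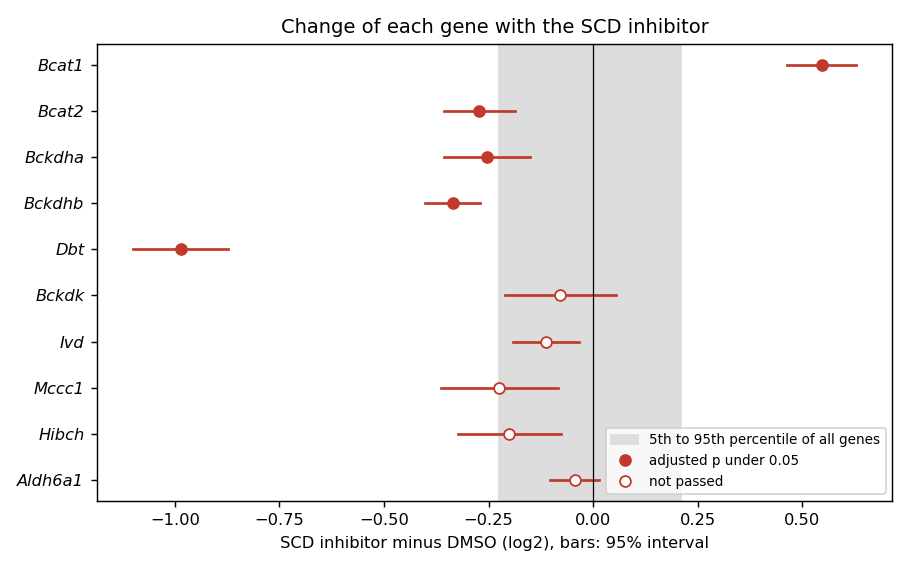
Log2 difference, SCD inhibitor minus DMSO, of the 10 genes with 95% intervals from limma; filled points passed an adjusted p of 0.05, and the grey band spans the 5th to 95th percentile of all genes (-0.22 to 0.21). Dbt and Bcat1 lie far outside the band, Bckdhb, Bcat2 and Bckdha just outside its lower edge, and the other 5 inside it, with Mccc1 at the edge.

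Of the 16 other enzymes of the pathway analysed here, 4 fell, 1 rose and 11 did not pass, with a median log2 difference of -0.06. Over all genes 4.37% were lower and 3.62% higher. Ppm1k, the phosphatase that reactivates the dehydrogenase complex, read 7.40, 7.63 and 7.77 with the inhibitor, against 7.93, 8.29, 8.07 and 8.13 in DMSO. It fell by 0.51 (SE 0.11, adjusted p = 0.0383), but did not pass whichever of the 7 arrays was left out (adjusted p from 0.0513 to 0.116). Dld, the third component, which the complex shares with pyruvate dehydrogenase, had a difference of -0.11 that did not pass. On the leucine branch Auh, methylglutaconyl-CoA hydratase, fell by 0.31 (SE 0.051, adjusted p = 0.0147). Its difference missed the threshold, at -0.29 and -0.30, with SCD inhibitor 1 left out (0.0571) or SCD inhibitor 2 left out (0.0636). Mccc2, the partner subunit of Mccc1, had -0.08.

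In the isoleucine branch 0 of 3 genes passed in limma, with 0 at an unadjusted p under 0.05 and differences of -0.02 to 0.01. Acadsb, the short branched-chain acyl-CoA dehydrogenase, and Acat1, the thiolase that ends the branch, were the nearest to the threshold at -0.02 and -0.01. In the rest of the valine branch 0 of 3 passed, although Echs1, enoyl-CoA hydratase (0.13), and Hibadh, hydroxyisobutyrate dehydrogenase (-0.09), had unadjusted p-values under 0.05. Echs1 passed in 4 of 17 alternatives, among them the fit without DMSO 1 (adjusted p = 0.0265), and Hibadh in 1, without SCD inhibitor 3 (0.0397). Averaged over its rows on the array, Hibadh had a difference of only -0.0037 (adjusted p = 0.97 in limma).

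Propionyl-CoA, the shared product of valine and isoleucine, is carboxylated by an enzyme whose subunits both fell. Pcca read 9.44, 9.53 and 9.62 with the inhibitor, against 9.88, 9.83, 9.89 and 9.91 in DMSO, and fell by 0.35 (SE 0.045, adjusted p = 0.00549). Pccb fell by 0.23 (SE 0.049, adjusted p = 0.0347), and did not pass without DMSO 3 (0.0673), DMSO 4 (0.101), SCD inhibitor 1 (0.0998), 2 (0.113) or 3 (0.104). Mmab, which makes the cobalamin cofactor of the mutase, rose by 0.27 (SE 0.044, adjusted p = 0.0135). Its difference was nearly the same, 0.26, but missed the threshold with DMSO 3 left out (0.0504) or SCD inhibitor 1 left out (0.0526). The mutase itself, Mmut, missed the threshold at -0.16 (adjusted p = 0.0686).

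**Figure D3:**
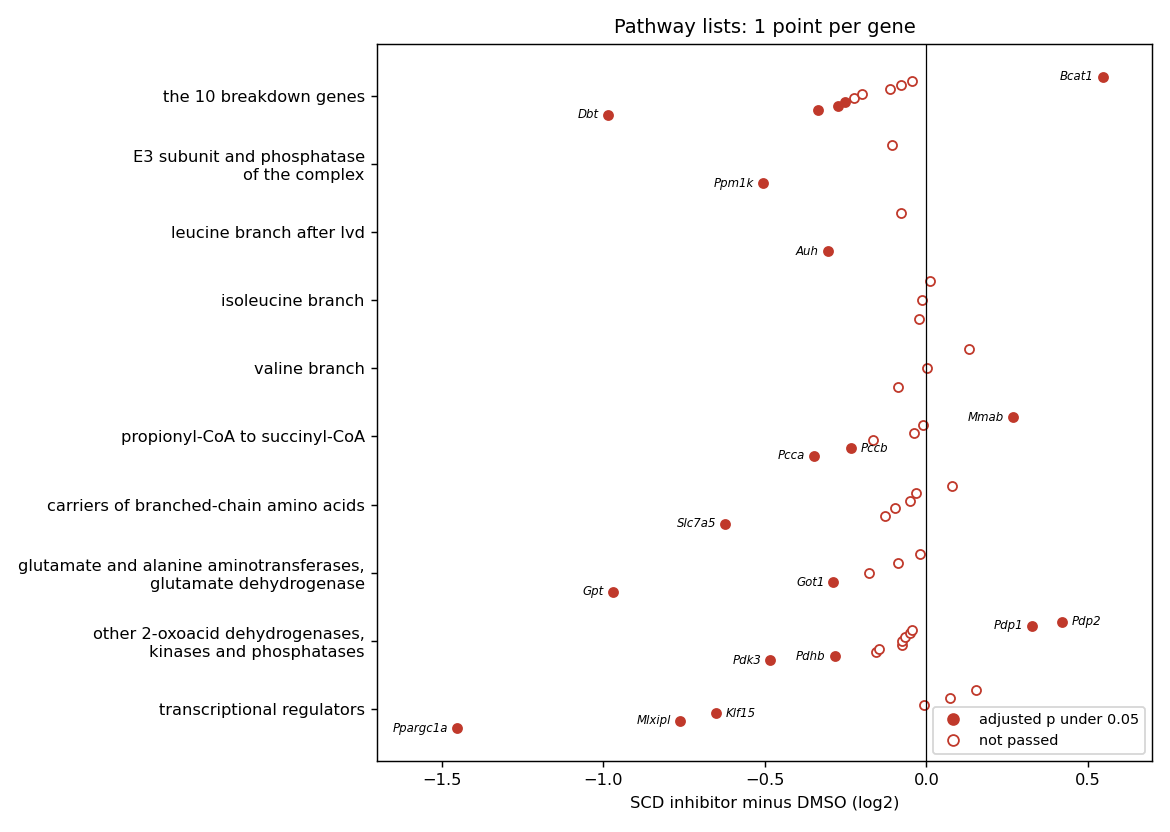
Log2 difference, SCD inhibitor minus DMSO, of every measured gene of the 10 breakdown genes and of 9 neighbouring lists, 1 point per gene; filled points passed an adjusted p of 0.05 and are named, except the 3 unnamed ones of the top row (Bckdhb, Bcat2 and Bckdha). The isoleucine and valine branches cluster around 0, and most named points lie to the left.

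Among 6 carriers of branched-chain amino acids 1 fell and 5 did not pass, against 4.37% of all genes lower. Slc7a5, the plasma membrane exchanger of large neutral amino acids, read 10.60, 10.63 and 10.66 with the inhibitor, against 11.35, 11.24, 11.27 and 11.15 in DMSO, and fell by 0.62 (SE 0.047, adjusted p = 6.28e-04). Its heavy chain partner Slc3a2 had a difference of -0.13 at an adjusted p of 0.0501. Slc3a2 passed in 5 of 17 alternatives, but in 0 of the 7 fits that left out 1 array. Slc25a44, the mitochondrial carrier of these amino acids, had 0.08 and did not pass. Of 5 genes of glutamate and alanine handling, which take up the amino group next, 2 fell, against the same 4.37%. Gpt, alanine aminotransferase, read 8.39, 8.29 and 8.32 with the inhibitor, against 9.40, 9.26, 9.27 and 9.28 in DMSO, 51.0% of the DMSO level (log2 -0.97, SE 0.043, adjusted p = 6.74e-05). Got1, the cytosolic aspartate aminotransferase, fell by 0.29 (SE 0.035, adjusted p = 0.00474).

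The related 2-oxoacid dehydrogenases were measured through 11 of 12 listed genes, with Pdha1 not among the genes with a row of 1 symbol. Of the 11, 2 fell, 2 rose and 7 did not pass, against 4.37% lower and 3.62% higher over all genes. Dlat and Dlst, the cores that correspond to Dbt in the pyruvate and 2-oxoglutarate complexes, had differences of -0.04 and -0.08 that did not pass, while Dbt had -0.99; the differences between them were not tested. Pdk3, a kinase of pyruvate dehydrogenase, fell by 0.48 (SE 0.053, adjusted p = 0.0029). The pyruvate dehydrogenase phosphatase genes rose, Pdp1 by 0.33 (adjusted p = 0.011; 0.0528 without SCD inhibitor 2) and Pdp2 by 0.42 (adjusted p = 0.0453), whereas Ppm1k, the phosphatase of the branched-chain complex, fell. The call of Pdp2 ended in 6 of the 7 fits without 1 array, all except that without DMSO 3 (adjusted p up to 0.157). Pdhb fell by 0.28 (adjusted p = 0.0294). Its difference stayed between -0.30 and -0.26 but missed the threshold with DMSO 2 left out (0.0786), and likewise with DMSO 3 (0.0677), DMSO 4 (0.0873), SCD inhibitor 1 (0.0964) or SCD inhibitor 3 left out (0.11). Averaged over the rows of Pdhb on the array, the difference was smaller, -0.19, and passed (adjusted p = 0.0176 in limma).

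Of 6 regulators listed for a tie to this pathway or to the adipocyte state, 3 fell and 3 did not pass. Over all genes 4.37% fell. Klf15, a factor known to drive branched-chain amino acid breakdown genes in mouse muscle, read 8.89, 8.93 and 8.98 with the inhibitor, against 9.66, 9.54, 9.56 and 9.57 in DMSO (log2 -0.65, adjusted p = 1.47e-04). Ppargc1a, a coactivator of mitochondrial genes, read 7.17, 7.04 and 7.13 with the inhibitor, against 8.47, 8.74, 8.45 and 8.61 in DMSO (log2 -1.45, adjusted p = 1.29e-04). Mlxipl, which encodes ChREBP, fell by 0.76 (adjusted p = 0.00175). Pparg (0.07, adjusted p = 0.135) and Srebf1 (0.15, adjusted p = 0.085) did not pass with all arrays; Srebf1 passed in 5 of 17 alternatives, among them the fit without DMSO 1 (0.00494). No test was made of a link between any of these and the 10 enzymes.

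The calls of Bcat1, Bcat2, Bckdhb and Dbt held in all 17 alternative fits, those without 1 array included. Bckdk, Ivd and Aldh6a1 passed in 0 of 17, with adjusted p from 0.322 to 0.681, 0.0667 to 0.282 and 0.325 to 0.684. Bckdha passed in 13, and Mccc1 and Hibch, just short of the threshold with all arrays, in 5 each. The sign of the difference was the same in every fit for each of the 10 genes.

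**Figure D4:**
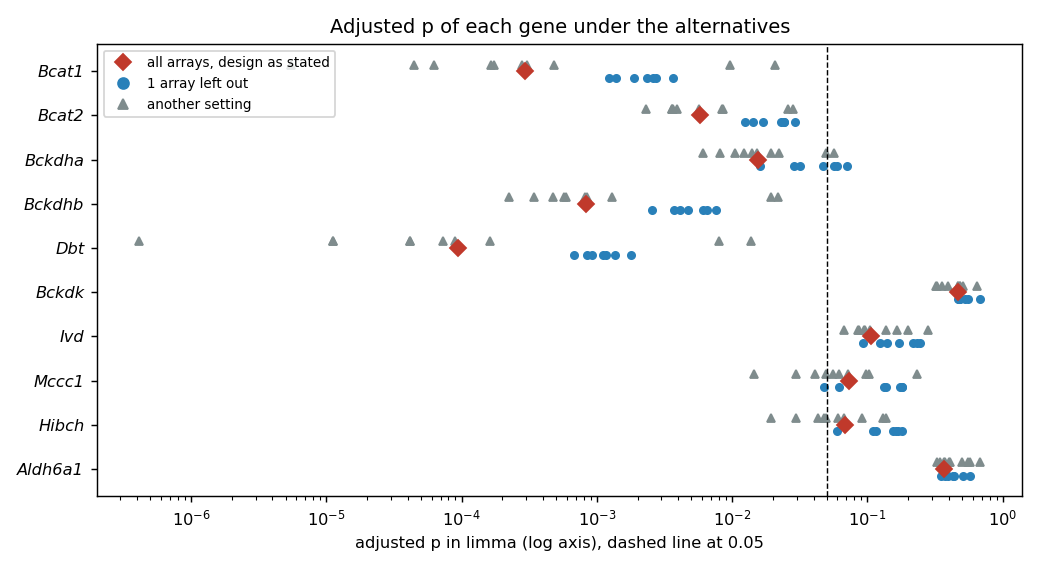
Adjusted p in limma (log axis) of the 10 genes with all arrays (diamonds), with 1 array left out (circles) and under the other settings (triangles), the dashed line marking 0.05. Bcat1, Bcat2, Bckdhb and Dbt stay left of the line throughout, while Bckdha, Mccc1 and Hibch have points on both sides.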

How the data were processed

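Total RNA of 7 samples of differentiated 3T3-L1 cells (3 SCD inhibitor, 4 DMSO, grouped by their source labels) was read on Affymetrix whole-transcript arrays from 100 ng each, per the labels' protocols. The deposited values are RMA expression levels on the log2 scale, per the submitters' processing notes; RMA corrects background, equalises the arrays' distributions and summarises probes, with its version not given in the sources used here. That the scale is log2 follows from the range of values, 2.23 to 13.2. Stored values are rounded, with 100% of those of 8 and above on steps of 1/512. Equal values on separate arrays occur, also below 8, where Myog read 3.83 on all 7 arrays. Their source was not tested. Precision is limited by the number of arrays, and changes of very bright genes may be understated; the brightest gene past the test with a change over 0.5 lay at 11.88, just above Bcat2 at 11.87.

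Of 28996 rows, 21218 had 1 symbol, 1881 several and 5897 were not listed; only the first were used, 1 row per gene with the highest mean (18820 genes, of which 1386 had more rows; none of the 10). All 10 matched RefSeq by Entrez number. Limma 3.58.1 in R 4.3.3 (lmFit, eBayes, residual 5 and prior 1.68 degrees of freedom) compared the groups over all genes, after a test on simulated data. Ratios of 2 genes were tested by exact permutation. The text names all 10 genes, the called genes of the pathway lists and up to 2 uncalled genes of smallest p per list; the cell type markers come from the marker lists, and Dlat was added after its values were seen. The 10 genes and the lists were chosen with earlier results of these data known. The alternatives tried were a replicate block, further quantile normalization, median centring, dropping dim genes, array weights, trend and robust options, averaging rows, all rows as features, and fits without 1 array or without both arrays numbered 1. Upstream sequences are RefSeq's for GRCm38.p6; the 50 bases after the start were left out.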

Additional observations from a re-analysis of the deposited data

Results flagged for a closer look

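In 2 of the 10 genes 1 DMSO array stood apart from the other 3, with a gap to its neighbour above 0.829 of the group's range. For independent, normally distributed values, chance gives such a gap in about 1 in 20 groups of 4. That rate need not hold here, where equal values occur, and it was not measured. Bckdk read 10.09 in DMSO 1, while DMSO 2, 3 and 4 all read 9.89. The source of this equality was not tested. Without DMSO 1 the difference of Bckdk was -0.03 (adjusted p = 0.527 in limma), against -0.08 with all arrays. Aldh6a1 read 11.36 in DMSO 4, against 11.30 to 11.31 in the other DMSO arrays, and without it the difference was -0.03 (adjusted p = 0.51) in place of -0.04. Neither gene passed the test with or without the array. Groups of 3 were not examined in this way.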

How the results depend on the processing

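Over all genes 1505 passed, 682 higher and 823 lower. The counts (total, higher, lower) were 896, 437 and 459 with a replicate block, 808, 434 and 374 without both arrays numbered 1, and 2326, 1296 and 1030 with centred arrays, where the lower share was 44.3% in place of 54.7%; a further quantile normalization gave 1106 higher. Leaving out 1 array gave 949 to 1294 in all, 369 to 712 higher and 541 to 643 lower. Bckdha lost its call with the block (log2 -0.27, adjusted p = 0.057), and its differences without 1 array ran from -0.27 to -0.22. Hibch passed with array weights (-0.21), centring (-0.19), the dimmest 25% (-0.20) or 50% (-0.20) dropped and quantile normalization (-0.19); Mccc1 passed with centring (-0.21), the dimmest 25% (-0.22) or 50% (-0.22) dropped and quantile normalization (-0.22), and ran from -0.28 to -0.15 without 1 array. Where dim genes were dropped, fewer genes shared the adjustment; the other causes were not tested. Of the other pathway enzymes the number higher was 2 with array weights, the dimmest 50% dropped or quantile normalization and 0 with the block or without both arrays numbered 1, and 0 to 2 without 1 array; the number lower was 2 with the block, 2 without both arrays numbered 1 and 1 to 3 without 1 array. The number of the 10 genes called lower was 3 to 6 and called higher 1 in every alternative, and their median ran from -0.23 to -0.16. Whether the replicate number marks a pairing could not be decided. Same-numbered arrays' deviations correlated at 0.17, 0.14 and 0.08. SCD inhibitor 2 correlated better with DMSO 4 (0.16), and the remaining pairs ran from -0.17 to -0.0076. DMSO 4 adds nothing to the block fit. Pdk3 and Pdp1 also lost their calls with the block (adjusted p = 0.0511 and 0.0692), as did Ppm1k (0.0707), Pccb (0.125), Mmab (0.087) and Dlk1 (0.113).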
